A study of Homo sapiens with 2 samples.

Results

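The cyclins, cyclin-dependent kinases (CDKs), CDK inhibitors and E2F transcription factors were examined in 2 related human colorectal cancer cell lines. Members were the protein-coding genes of both gene tables whose name is that of a cyclin from CCNA to CCNL, a numbered CDK or CDC2 (the older name of CDK1), a CDKN inhibitor or an E2F factor. CDKN1A, CDKN1C and CCNG1 were left out by this rule. It gave 43 of the 36953 genes in the files: 20 cyclins, 10 CDKs, 5 inhibitors and 8 E2Fs. The rule uses names and no measured value, though it was set with earlier results of these data known.

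MIP101 is a colorectal cancer line from a liver metastasis and is sensitive to 5-fluorouracil (5-FU), a pyrimidine analog. MIP/5FU is 1 clone that came out of MIP101 cells passaged in increasing amounts of 5-FU, and its IC50 for the drug is 10-fold higher. It was kept in 5 µM 5-FU, while no drug is stated for MIP101, and neither culture had drug in the last 48 hours or so before RNA isolation. Polyadenylated RNA of each line was sequenced as 1 library, and all ratios here are MIP/5FU over MIP101. With 1 library of each line no difference has a replicate check, and a difference between the lines cannot be told apart from one between these cultures. Intervals cover counting error only, because PCR reads without molecular identifiers are not independent molecules.

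Progress through the cell cycle rests on CDKs that are active only when bound to a cyclin. D cyclins with CDK4 or CDK6 start the phosphorylation of the retinoblastoma protein in G1, which frees the activator E2Fs to transcribe cyclin E, cyclin A and the genes of DNA replication. E cyclins with CDK2 complete that step at the start of S phase, cyclin A acts through S and G2, and B cyclins with CDC2 drive entry into mitosis. INK4 inhibitors bind CDK4 and CDK6, and the KIP inhibitors bind cyclin E and cyclin A complexes of CDK2. In colorectal cancer the pathway is known for its link to WNT signalling and for silencing of INK4 genes. RNA of many of these genes rises and falls with the cycle, so in bulk RNA fewer cells in a phase and less RNA per cell cannot be told apart.

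The MIP101 library had 200141071 reads in genes and the MIP/5FU library 109693681, and 15382 genes had the 100 reads over both libraries that were asked for. The median log2 ratio of these genes was 0.03, and 83.2% of them lay within 1.5-fold. All 11 colorectal epithelial markers were tested and 6 lay within 1.5-fold, such as CDX2 with 47697 and 23447 reads. KRT20 was 6.77-fold higher (572 and 2124 reads), and LGALS4 (358 and 79 reads) and VIL1 were 2.47-fold and 2.34-fold lower. CEACAM5 (251 and 216 reads) and GPA33 (58 and 49) were 1.57-fold and 1.54-fold higher. CEACAM5, GPA33 and LGALS4 had fewer reads in each library than SERPINA1, a hepatocyte marker, and PDGFRB, a fibroblast marker. Markers of other cell types were low in sum: RPM over 5 hepatocyte genes was 7.46 in MIP101 and 5.03 in MIP/5FU, over 5 blood genes 0.370 and 0.720, and over 4 endothelial genes 0.135 and 0.0547. The 5 fibroblast genes summed to 4196 and 1863 reads. APOA1, TTR, COL1A2, DCN, HBB and CDH5 had 0 reads in both libraries, while COL3A1 had 1659 and 38, PDGFRB 2465 and 1788, SERPINA1 1345 and 428, ALB 68 and 68 and CD14 59 and 62. Their part in the values of the members was not tested.

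Most members, like most genes tested, had close levels in the sensitive parent and the resistant clone. Of the 43 members, 41 were tested. CCNA1, the germ-line cyclin A, had 2 reads in MIP101 against 0 in MIP/5FU, which allows up to 3 reads. CDKN2A had 2 and 4 reads. The median log2 ratio of the 41 was -0.00, with 20 above and 21 below 0. Within 1.5-fold lay 32 of them (78.0%), against 83.2% of all genes tested. The 95% interval lay above 0 for 16, below 0 for 14 and across 0 for 11. Among the 15382 genes tested it lay above 0 for 6123 and below 0 for 5494. Summed over the members, RPM (reads per 1e6 gene reads) was 3142 in MIP101 against 3020 in MIP/5FU.

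Only CCND2 passed 2-fold, and it was lower in MIP/5FU; 0 members were higher at 2-fold. Among all genes tested, 3.09% were lower and 2.53% higher at 2-fold with an interval excluding 0. At 1.5-fold, 7 members were higher (CDKN2B, CDKN2C, CDKN2D, E2F1, E2F2, CCNE2 and CDK3) and 2 were lower (CCND2 and CCNI2), against 8.67% higher and 8.14% lower among all genes. This split rested on values near the threshold. When the median ratio of all genes or TMM factors set the scale, 4 members were higher and 4 lower, because E2F1, CCNE2 and CDK3 fell just short and CCNA2 and CCNG2 came in.

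The families did not share 1 direction. The median log2 ratio was -0.19 over 19 cyclins (6 above and 13 below 0), 0.02 over 10 CDKs, 0.72 over 4 inhibitors and 0.18 over 8 E2Fs (6 above and 2 below). Against the median of 0.03 over all genes these are descriptions of the lists, with no test, and the sign of the CDK median turned under median or TMM scaling.

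**Figure D1:**
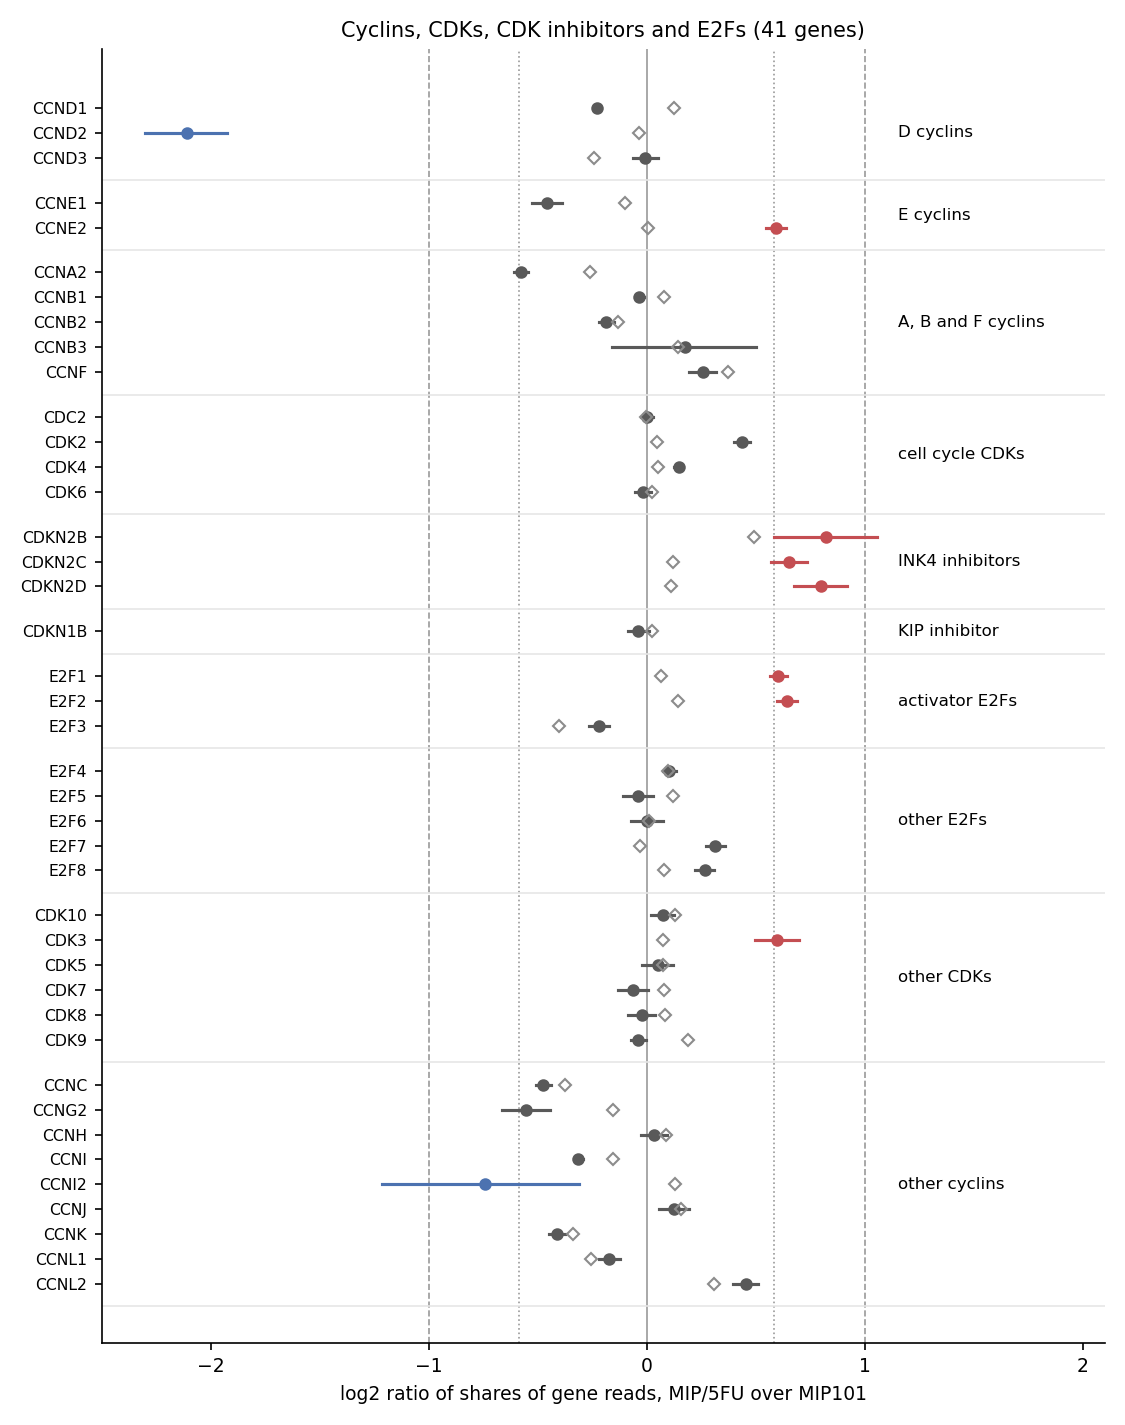
The log2 ratio (x axis, MIP/5FU over MIP101) of the 41 tested members by role, with the 95% counting interval as a bar; red and blue points are counted at 1.5-fold higher and lower, open diamonds are the median of the 40 nearest protein-coding genes, dotted lines mark 1.5-fold and dashed lines 2-fold. CCND2 at -2.11 stands outside 2-fold alone, and the 3 INK4 genes lie to the right of the 1.5-fold line at 0.65 to 0.82.

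E2F proteins bind promoters of cell cycle genes, and the CHR and CCAAT elements are known in promoters of G2/M genes. Promoter windows from RefSeq (GRCh38.p14) were found for 37 of the 43 members, 48 windows in all, and the 250 bases before each start were searched on both strands. The letters searched were TTTCGCGC, TTTGGCGC, TTTCCCGC and TTTGCCGC for E2F, TTTGAA and TTCGAA for CHR, and CCAAT. An E2F match was in 5 of the 48 member windows (10.4%), against 2.79% of all 35116 windows. CHR matches were in 6 (12.5%, against 14.3%) and CCAAT in 18 (37.5%, against 32.0%). Of the 7 members higher at 1.5-fold 6 had windows, and 2 of these, E2F1 and E2F2, held an E2F match, as did E2F3, CDC2 and CDK10, which were not higher at 1.5-fold. The windows below show those 2, a CDK inhibitor that was higher and a cyclin that was lower, with every match in capitals and the strand of the gene read 5′ to 3′. A match is a run of letters and not a shown binding site. Other forms of these elements were not searched, so a window without a match is not shown to lack one.
E2F1 (chr20:33686386-33686635, minus strand): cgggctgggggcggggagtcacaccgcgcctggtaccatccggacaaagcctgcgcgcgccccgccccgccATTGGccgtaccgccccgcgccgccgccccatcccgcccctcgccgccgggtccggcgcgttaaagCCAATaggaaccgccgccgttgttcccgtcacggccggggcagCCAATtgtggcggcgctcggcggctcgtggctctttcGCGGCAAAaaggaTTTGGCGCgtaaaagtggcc
E2F2 (chr1:23531234-23531483, minus strand): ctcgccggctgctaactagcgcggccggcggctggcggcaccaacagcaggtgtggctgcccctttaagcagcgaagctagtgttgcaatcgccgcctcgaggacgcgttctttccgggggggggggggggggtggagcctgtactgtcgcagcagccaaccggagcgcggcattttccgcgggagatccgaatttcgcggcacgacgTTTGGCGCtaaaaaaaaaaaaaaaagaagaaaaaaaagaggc
CDKN2D (chr19:10568980-10569229, minus strand): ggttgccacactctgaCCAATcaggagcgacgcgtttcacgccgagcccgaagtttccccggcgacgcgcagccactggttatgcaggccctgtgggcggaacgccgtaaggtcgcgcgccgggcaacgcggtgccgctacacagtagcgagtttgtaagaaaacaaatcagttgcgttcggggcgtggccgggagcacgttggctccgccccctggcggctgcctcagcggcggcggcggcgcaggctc
CCNA2 (chr4:121823884-121824133, minus strand): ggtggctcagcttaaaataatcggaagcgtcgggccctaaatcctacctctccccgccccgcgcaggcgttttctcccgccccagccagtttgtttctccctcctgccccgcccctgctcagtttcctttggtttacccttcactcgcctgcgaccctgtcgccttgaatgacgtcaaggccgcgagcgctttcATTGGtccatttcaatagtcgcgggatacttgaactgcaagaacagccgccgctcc

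The E2F1 window held 2 E2F matches and 3 CCAAT matches. Of the E2F matches, TTTGCCGC was on the strand opposite the gene, 33 to 26 bases before the start. TTTGGCGC was on the gene's own strand, 20 to 13 bases before it. The E2F2 window held TTTGGCGC 42 to 35 bases before the start and no other match. The CDKN2D and CCNA2 windows held 1 CCAAT match each, 234 to 230 and 56 to 52 bases before the start.

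The D cyclins, which couple growth signals to CDK4 and CDK6, were made up almost wholly of CCND1. CCND1 (hg18 chr11:69165054-69178422) had 99208 reads in MIP101 against 46448 in MIP/5FU, or 116 and 98.7 RPKM, the RPM divided by the gene's exon length in kilobases. Its log2 ratio was -0.23 (-0.24 to -0.21). CCND3 (chr6:42010650-42124402) had 6876 and 3749 reads and a log2 ratio of -0.01 (-0.07 to 0.05). On the per-length scale CCND1 was 87.4% of D cyclin reads in MIP101 against 86.6% in MIP/5FU, and CCND3 was 11.4% and 13.1%.

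CCND2 (chr12:4253199-4284777) was low in the parent and lower in the clone. It had 2066 reads in MIP101 against 262 in MIP/5FU, or 1.59 and 0.369 RPKM, a log2 ratio of -2.11 (-2.30 to -1.93) and 4.31-fold lower. Its share of D cyclin reads per length was 1.20% in MIP101 against 0.323% in MIP/5FU. The deposited flag by which the authors marked a gene as expressed was set for CCND2 in MIP101 against not in MIP/5FU.

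The difference in CCND2 was larger over its first 4 exons than over its last. Exon 5, which is 5491 bases long with 150 coding bases, held 1865 read equivalents in MIP101 against 256 in MIP/5FU, 3.99-fold lower (3.50 to 4.57). A read equivalent is the deposited coverage divided by the mean bases per read. Exons 1 and 2 held 44 and 24 read equivalents in MIP101, and 0 in MIP/5FU, which allows up to 3 for each. Exons 3 and 4 held 68 and 70 in MIP101 and 5 and 3 in MIP/5FU. Exons 1 to 4 together, 989 bases with 206 and 8, were 13.3-fold lower (7.03 to 33.1). The last exon held 90.1% (88.7 to 91.3, exact binomial interval) of the exon read equivalents in MIP101 and 96.97% (94.1 to 98.7) in MIP/5FU. Junctions between neighbouring exons had 32 reads in MIP101 against 2 in MIP/5FU, 7.13-fold lower (2.24 to 75.5). These sums were chosen after the values had been seen.

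CDK4 and CDK6 bind the D cyclins, and CDK4 was the abundant one. CDK4 (chr12:56428272-56432431) had 47767 reads in MIP101 against 28958 in MIP/5FU, 166 and 183 RPKM, with a log2 ratio of 0.15 (0.12 to 0.17). It held second place among the members in MIP101 and first place in MIP/5FU. CDK6 (chr7:92072175-92301148) had 17374 and 9400 reads, 7.49 and 7.39 RPKM, with a log2 ratio of -0.02 (-0.06 to 0.02). Per length of the whole gene CDK4 was 22.1 times (21.7 to 22.5) as abundant as CDK6 in MIP101 and 24.8 times (24.2 to 25.4) in MIP/5FU. Over exon regions that are coding in full, CDK4 had 210 RPKM in MIP101 against 228 in MIP/5FU, and CDK6 11.8 and 9.16. The size of the ratio in MIP101 therefore depended on the part of each gene that was used.

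The gene total of CDK6 hid a difference between its coding exons and its long last exon. The last exon region, 10362 bases with 147 coding bases, held 88.5% of the gene's read equivalents in MIP101 against 90.6% in MIP/5FU, and its log2 ratio was 0.02 (-0.02 to 0.05). The exon regions before it held 2002 read equivalents in MIP101 against 889 in MIP/5FU, a log2 ratio of -0.30 (-0.42 to -0.19). Over the 5 regions that are coding in full (1418 and 604) it was -0.36 (-0.50 to -0.23), and junctions between neighbouring exons (449 and 187 reads) gave -0.39 (-0.65 to -0.15). So CDK6 was close to level by all its reads and 1.29-fold lower (1.17 to 1.42) by its fully coding exons, a comparison chosen after the values had been seen. Exon regions 5a and 7a were the most shifted against the gene, with index values (log2 ratio of the region minus that of the gene) of -0.57 (interval -1.17 to -0.02, at a 0.1% error rate) and -0.53 (-1.05 to -0.04), neither past the index of 1 asked for. A short gene named AC004128.1 lies within the span of CDK6 on the same strand, with 602 and 365 reads. In 30 of the 36 tested members with at least 100 read equivalents over fully coding regions, those regions and the whole gene differed by at most 0.1 in log2 ratio.

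**Figure D2:**
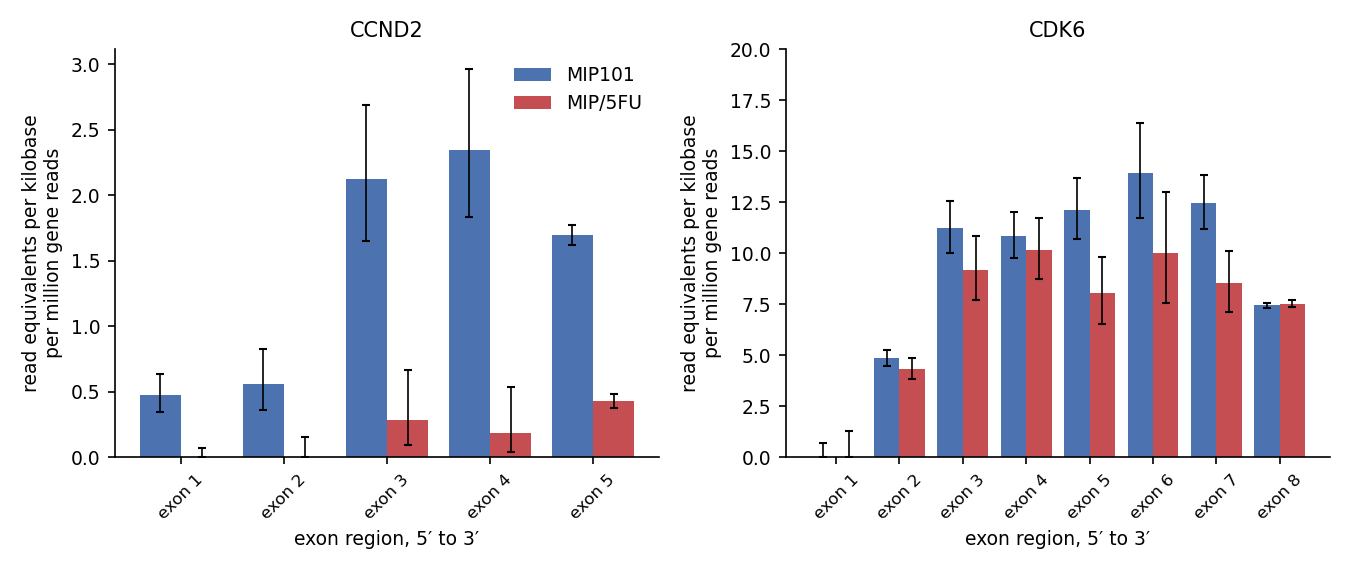
Read equivalents per kilobase, scaled to library size (y axis) over each exon region (x axis, 5′ to 3′) of CCND2 (left) and CDK6 (right) in MIP101 (blue) and MIP/5FU (red), with 95% exact binomial intervals as error bars. In CCND2 exons 1 and 2 are at 0 in MIP/5FU, and in CDK6 the last exon is level while exons 5 and 7 are lower in MIP/5FU.

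The 2 E cyclins, which activate CDK2 at the start of S phase, differed between the lines in opposite directions. CCNE1 (chr19:34994741-35007056) had 6016 reads in MIP101 against 2404 in MIP/5FU, 15.3 and 11.1 RPKM, with a log2 ratio of -0.46 (-0.52 to -0.39). CCNE2 had 8737 and 7226 reads, 15.9 and 24.0 RPKM, with a log2 ratio of 0.59 (0.55 to 0.64), 1.51-fold higher. Their levels per length were nearly equal in the parent, with CCNE1 at 0.962 times CCNE2 (0.931 to 0.994), and CCNE1 was 0.465 times CCNE2 (0.444 to 0.487) in the clone. CCNE2 made up 50.97% of E cyclin reads per length in MIP101 against 68.3% in MIP/5FU. In the order of levels among the 43 members CCNE2 went from place 21 to 15 and CCNE1 from 22 to 28. These were the largest shifts, while 34 of 43 members moved by at most 2 places. INTS8 overlaps CCNE2 on the opposite strand, and the protocol marks no strand; INTS8 itself had a log2 ratio of -0.25.

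CDK2, the partner of cyclins E and A, had 14062 reads in MIP101 against 10446 in MIP/5FU, 30.7 and 41.6 RPKM, with a log2 ratio of 0.44 (0.40 to 0.48). That is 1.36-fold higher and under the 1.5-fold rule.

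Cyclin A and the mitotic cyclins were level or lower. CCNA2 (chr4:122957991-122964468), the S and G2 cyclin of dividing cells, had 32010 reads in MIP101 against 11758 in MIP/5FU, 89.6 and 60.0 RPKM. Its log2 ratio was -0.58 (-0.61 to -0.55), 1.49-fold lower and just inside 1.5-fold. Median scaling gave -0.61 and TMM scaling -0.63, past 1.5-fold. Over its fully coding exon regions the log2 ratio was -0.57. CCNB1 (chr5:68498669-68509822), the main mitotic cyclin, had 112 and 109 RPKM and a log2 ratio of -0.03 (-0.06 to -0.01). CCNB2 had 67.7 and 59.5 RPKM and -0.19, CCNF, the F-box protein of an SCF ubiquitin ligase, 6.46 and 7.71 RPKM and 0.26, and CCNB3, a germ-line B cyclin, 0.217 and 0.244 RPKM and 0.17 with an interval across 0. CDC2, the kinase bound by A and B cyclins, had 29792 and 16325 reads and 72.9 RPKM in each library, a log2 ratio of -0.00 (-0.03 to 0.03).

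Among the CDK inhibitors the 3 tested INK4 genes were all higher in MIP/5FU, from a low level. CDKN2D (chr19:10538139-10540655) had 1134 reads in MIP101 against 1080 in MIP/5FU, 3.98 and 6.92 RPKM, and was 1.74-fold higher, with a log2 ratio of 0.80 (0.68 to 0.92). CDKN2C (chr1:51199005-51212893) had 2533 and 2181 reads, 3.81 and 5.99 RPKM, and was 1.57-fold higher, with 0.65 (0.57 to 0.73). CDKN2B (chr9:21992909-21999312) had 306 and 296 reads, 0.384 and 0.679 RPKM, and was 1.77-fold higher, with 0.82 (0.58 to 1.05). Most of its read equivalents were in noncoding regions (230 and 236), at 0.90 (0.64 to 1.17). Its fully coding region (28 and 25) had 0.71 (-0.13 to 1.54) and its partly coding regions (48 and 34) 0.38 (-0.31 to 1.03), both across 0. CDKN2C had 0.50 (0.38 to 0.63) over partly coding and 0.77 (0.66 to 0.89) over noncoding regions. This split was made after the values had been seen. Summed over the INK4 genes, RPKM went from 8.19 to 13.6, and the make-up hardly moved: CDKN2D was 48.7% and 50.9%, CDKN2C 46.6% and 44.0%, and CDKN2B 4.69% and 4.98%. As a median over its exon regions CDKN2D reached a log2 ratio of 1.18, against 0.80 from all its reads.

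CDKN2A, which encodes an INK4 inhibitor and, from another first exon, the ARF protein, was at the floor in both lines. Its exon region 1b held 2 and 1 read equivalents and its last region 4a held 0 and 3. The other exon regions and all of its junctions had 0 in both libraries, which allows up to 3 reads each, so the 2 first exons could not be compared. MTAP, which overlaps CDKN2A and CDKN2B in span on the opposite strand, had 20724 and 16164 reads, a log2 ratio of 0.51. CDKN2A and CDKN2B are alike in part of their sequence, so how reads were split between them is uncertain. CDKN1B, the KIP inhibitor of cyclin E and A complexes, had 10524 and 5617 reads, 21.9 and 21.3 RPKM, and a log2 ratio of -0.04 (-0.09 to 0.01).

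E2F1 and E2F2 were higher and E2F3 was lower among the activator E2Fs, which turn on the G1/S genes. E2F1 (hg18 chr20:31727150-31737854) had 11453 reads in MIP101 against 9538 in MIP/5FU, 23.0 and 35.0 RPKM, with a log2 ratio of 0.60 (0.56 to 0.64). E2F2 (chr1:23705509-23730300) had 7978 and 6825 reads, 7.68 and 12.0 RPKM, with 0.64 (0.60 to 0.69). E2F3 (chr6:20510377-20601921) had 12776 and 6018 reads, 13.5 and 11.6 RPKM, with -0.22 (-0.26 to -0.17). An E2F match was in a promoter window of all 3, since E2F3 held TTTCCCGC on the strand opposite the gene 53 to 46 bases before a start. E2F1 went from 52.1% to 59.8% of activator E2F reads per length, E2F2 from 17.4% to 20.5% and E2F3 from 30.5% to 19.8%. The 2 annotated transcripts of E2F3 in these files share their first exon region, so no alternative start could be compared there.

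The other E2Fs were within 1.5-fold. E2F7 (10.7 RPKM in MIP/5FU) and E2F8 (16.7), the atypical repressors that are themselves E2F targets, had log2 ratios of 0.31 (0.27 to 0.36) and 0.27 (0.22 to 0.31). E2F4, a repressor that works with pocket proteins, had 57.1 and 61.3 RPKM and 0.10, the highest level of any E2F in both libraries. E2F5, its close relative, had -0.04 and E2F6, a repressor independent of pocket proteins, 0.00, both with intervals across 0.

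**Figure D3:**
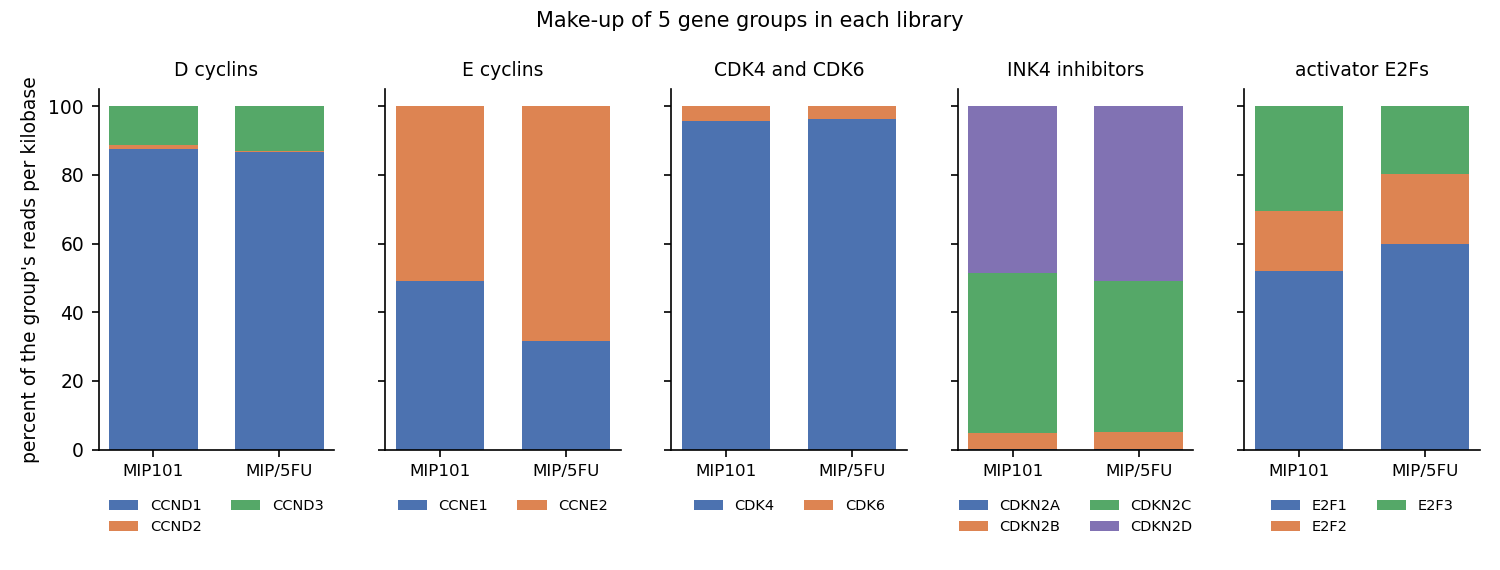
The percent of reads per kilobase (y axis) that each gene contributes to its group in MIP101 and MIP/5FU, for 5 groups named above the panels. CCNE2 grows from 50.97% to 68.3% of the E cyclins and E2F3 shrinks from 30.5% to 19.8% of the activator E2Fs, while CDK4 and the INK4 genes keep close shares.

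The CDKs of transcription and other roles, with CCNH, were close to level except CDK3. CDK7 with CCNH, which form the CDK-activating kinase, had log2 ratios of -0.06 and 0.03, CDK8, a Mediator kinase, -0.02, CDK9, the elongation kinase, -0.04, CDK5, best known in neurons, 0.05, and CDK10 0.07. CDK3, a kinase related to CDK2, had 1801 reads in MIP101 against 1494 in MIP/5FU, 2.74 and 4.14 RPKM, and was 1.51-fold higher (1.41 to 1.62). It overlaps AC040980.1 on its own strand, with 126 and 103 reads.

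Several other cyclins were lower without reaching 1.5-fold. CCNC, the Mediator cyclin and partner of CDK8, had 33.6 and 24.1 RPKM and a log2 ratio of -0.48 (-0.51 to -0.44). CCNK, a cyclin of transcription elongation kinases, had 38.0 and 28.6 RPKM and -0.41, and CCNI, the most abundant member in MIP101, 197 and 159 RPKM and -0.31. CCNG2, known as a cyclin of cells leaving the cycle, had 5.29 and 3.61 RPKM and -0.55 (-0.66 to -0.44). CCNI2 had 172 and 56 reads, 0.365 and 0.217 RPKM, and was 1.67-fold lower (1.24 to 2.32). It overlaps SEPT8, with 17963 and 11211 reads on the opposite strand, and over its fully coding regions (54 and 25 read equivalents) the log2 ratio was -0.23 with an interval across 0 (-0.99 to 0.47). CCNL2, a splicing-linked cyclin, was higher at 0.45 (0.39 to 0.51), its relative CCNL1 was at -0.17, and CCNJ was at 0.12.

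**Figure D4:**
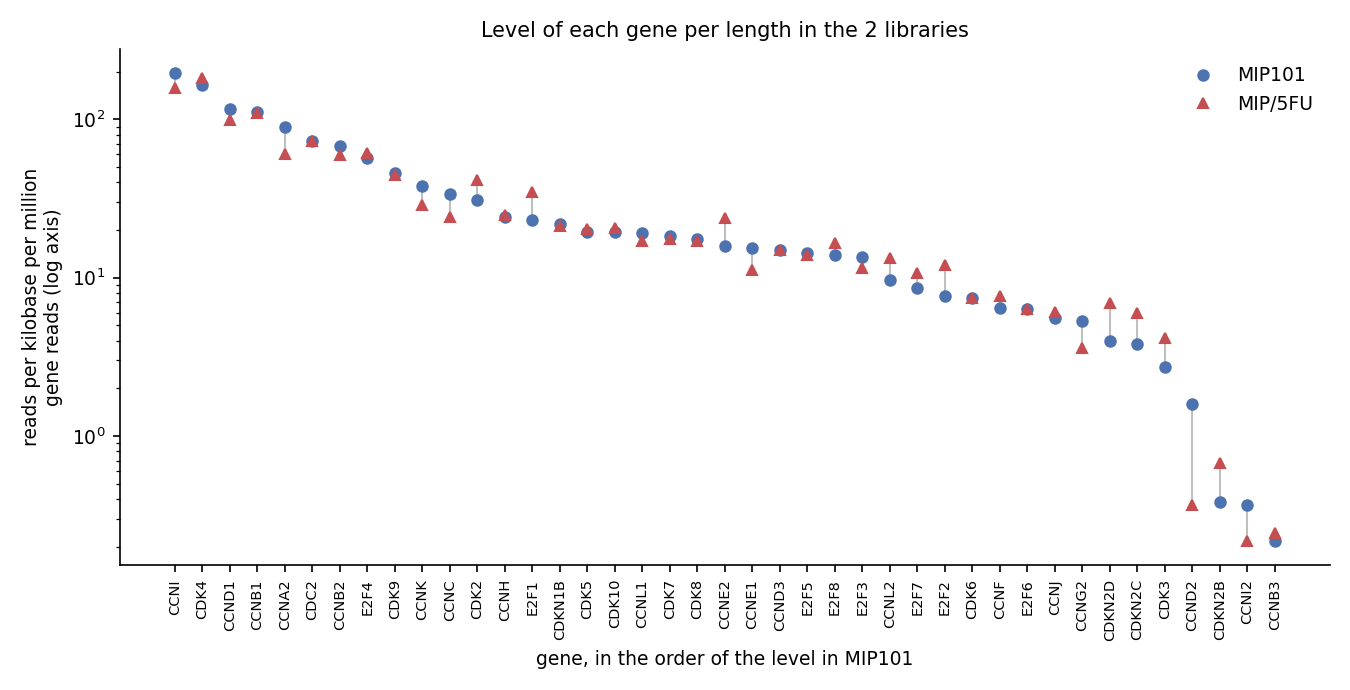
RPKM (y axis, log scale) of the 41 members with at least 3 reads in each library, which leaves out CCNA1 and CDKN2A, in MIP101 (circles) and MIP/5FU (triangles), ordered by MIP101. CCNI, CDK4, CCND1 and CCNB1 hold the first 4 places in both libraries, and CCND2 has the longest line.

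Levels per length spanned from 0.217 RPKM (CCNB3) to 197 RPKM (CCNI) among the tested members in MIP101. CCNI, CDK4, CCND1 and CCNB1 held the first 4 places in both libraries and CCNA2, CDC2, CCNB2 and E2F4 the next 4, in changed order. The authors' deposited flag marked 38 of the 43 members as expressed in MIP101 against 37 in MIP/5FU. It was set for CDKN2B in MIP/5FU alone and for CCND2 and CCNL2 in MIP101 alone, although the reads of CCNL2 made up a larger share in MIP/5FU.

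Each member was also set beside its neighbours in the genome, as the median log2 ratio of the 40 nearest protein-coding genes on its chromosome. Of the 41 tested members 31 (75.6%) had neighbours with the same sign, against 65.0% of 14135 protein-coding genes. Of the 9 members counted at 1.5-fold 8 had the same sign, CCNI2 being the other, against 71.5% of 2361 such genes, and for most of the 8 the neighbours' median was near 0. Around CDKN2B the neighbours were at 0.49, and 34 of 40 were above 0; around CCNK they were at -0.34, around CCNC at -0.38, around E2F3 at -0.40 and around CCNL2 at 0.31. Neighbours of CCND2 (-0.04), CCNE2 (0.00), E2F1 (0.07), CDKN2D (0.11), CDKN2C (0.12), E2F2 (0.14) and CDK3 (0.08) were close to level. After subtracting the neighbours' median, CDKN2D (0.69) and CCNE2 (0.59) were at 1.5-fold above, CCND2 (-2.07) and CCNI2 (-0.87) were at 1.5-fold below, and CDKN2B had 0.33. With the 80 nearest genes CCNE2 had 0.50, under 1.5-fold. The part of chromosomal position in these values was not tested.

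Exon regions, transcripts, junctions and exon-intron boundaries of the members were then set against their own gene. A feature was counted at an index of at least 1 with an interval, at a 0.1% error rate, excluding 0. Of 362 exon regions 2 were relatively higher (all genes: 0.164%) and 0 lower (0.112%). Of 47 transcripts 2 were higher (0.505%) and 0 lower (0.203%). Those transcripts, of CCNC and CDKN2C, were measured from the same or nearly the same reads as the 2 exon regions, so they are not separate observations. Of 284 junctions 1 was lower (0.0997%) and 0 higher (0.0559%), and of 112 boundaries 3 were higher (0.741%) and 0 lower (0.122%). Few features of the members were counted. For each kind the counted share, in the direction named first, was above that of all genes. It rested on only 1 to 3 features of a kind, so no difference from all genes was read from it.

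In CCNC the region 5b (chr6:100111825-100113093), 1269 bases specific to the short transcript ENST00000369217, had 352 read equivalents in MIP101 against 278 in MIP/5FU. Its index was 1.00 (0.61 to 1.39), and its own log2 ratio was 0.53 (0.14 to 0.91), against -0.48 for the gene. The first region 1a of CCNC had an index of 0.52 (0.03 to 1.00), not counted, and its own log2 ratio was 0.05 (-0.45 to 0.52). In CDKN2C the region 2a (chr1:51206196-51206955), 760 noncoding bases of transcript ENST00000262662, had 21 and 53 and an index of 1.53 (0.34 to 2.92), while region 2b next to it had 1211 and 1103 and 0.08. The transcript itself, 23 and 54, had an index of 1.43. Its own junction from exon 1a to 2a had 0 reads in both libraries.

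CCNL1, a cyclin that works in splicing, had the counted junction and 1 counted boundary. The junction from exon 3 (chr3:158359349-158359458) to exon 5 (chr3:158353519-158353639) skips the short exon 4 and belongs to the full-length transcript ENST00000295926. It had 99 reads in MIP101 against 23 in MIP/5FU, an index of -1.04 (-2.30 to -0.0047). The exons on either side, with indices of -0.28 and -0.21, and the skipped exon 4a (50 and 20 read equivalents, -0.26) were not counted. With the median over the junctions of CCNL1 in place of its gene ratio the index was -0.96, which ended the count. The joined sequence of this junction, taken from GENCODE v29, has exon 3 in lower case and exon 5 in capitals.
CCNL1 exon 3 to exon 5: gttaagaggaaaaagGACTCCAAGCCCCCT

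The counted boundaries, which are reads running across the edge between an exon and an intron in either order, were small. In CCNG2 boundary E9_Da had 58 reads in MIP101 against 44 in MIP/5FU, an index of 1.03 (0.02 to 1.99). In CCNL1 E11_Aa had 5 and 16 reads, 2.62 (0.36 to 5.92), and in CDK4 E4_Aa had 5 and 18, 2.47 (0.28 to 5.75). With only 5 reads in MIP101, the last 2 have wide intervals.

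Partners and targets of the members, in 6 lists, were mostly close to level. Of the 67 listed genes found in the files 66 were tested, and 65 (98.5%) lay within 1.5-fold, against 83.2% of all genes tested. Only MYBL1, a MYB factor, was counted, at 0.60 and higher, and 0 were lower. Among all genes tested 8.67% were counted higher and 8.14% lower at 1.5-fold. No test was made of the difference between the lists and all genes. The pocket proteins and DP partners had a median of -0.15 over 5 genes. RB1 was at 0.19 and RBL2 at 0.05, TFDP1 at -0.24 and TFDP2 at -0.30. Regulators of CDK phosphorylation had a median of -0.10 over 9, from PKMYT1 (0.23) and CDC25C (0.03) to CKS1B (-0.28) and CDKN3 (-0.57), a CDK phosphatase. Ubiquitin ligase parts had -0.03 over 9, from CDC20 (0.29) and FBXW7 (0.11), which marks cyclin E for breakdown, to SKP2 (-0.38) and FBXO5 (-0.40).

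MuvB, B-MYB and FOXM1 genes had a median of 0.07 over 8, with MYBL1 and RBBP4 (0.26) highest and LIN54 (-0.09) and LIN9 (-0.30) lowest. The E2F targets of G1/S had 0.12 over 17, 10 above and 7 below 0, from RRM2 (0.31) and CDT1 (0.27) to MCM6 (-0.18) and MCM2 (-0.32). The G2/M genes had 0.03 over 18, with the sign turned under median or TMM scaling, from TPX2 (0.21) and KIF11 (0.20) to CENPF (-0.41) and KIF23 (-0.49).

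**Figure D5:**
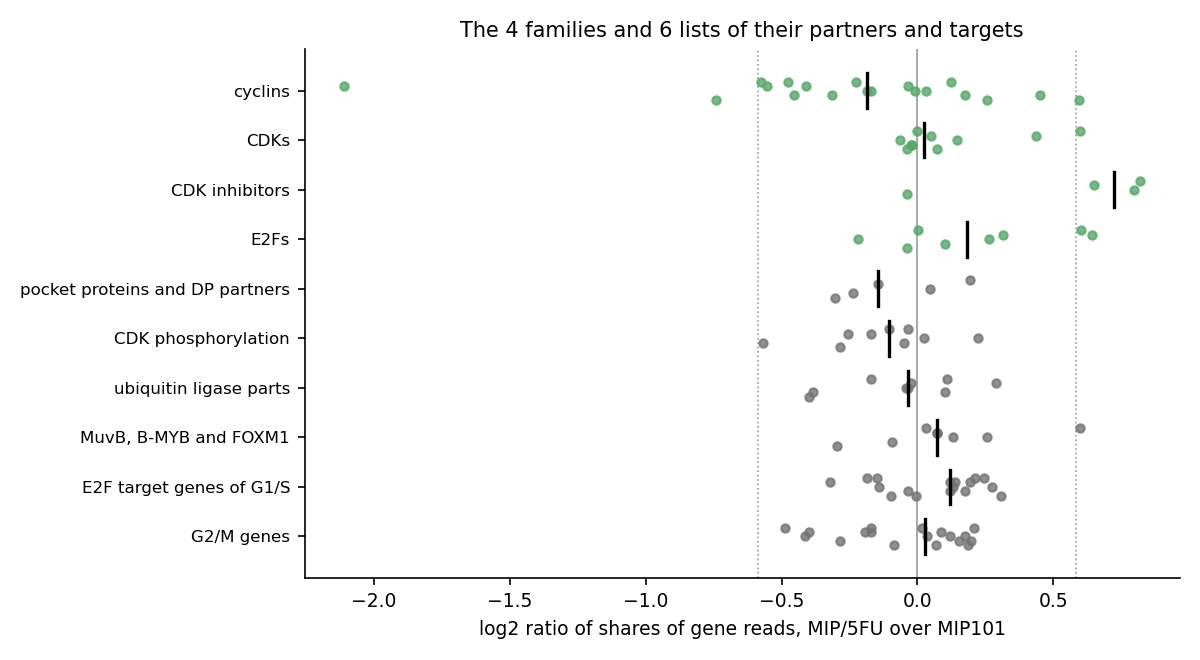
The log2 ratio (x axis, MIP/5FU over MIP101) of each tested gene in the 4 families (green) and in 6 lists of partners and targets (grey), with the median as a black bar and 1.5-fold as dotted lines; vertical offsets within a row only separate points. Of the 66 genes in the lists only MYBL1 lies past 1.5-fold, while 9 of the 41 members do. Among all genes tested, 8.67% were counted higher and 8.14% lower at 1.5-fold.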

How the data were processed

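Polyadenylated RNA of MIP101 and MIP/5FU was sequenced as 1 library each and read as paired 42-mers or 36-mers after 10 cycles of PCR, per the labels. The authors assigned reads to genes, transcripts, exon regions, junctions and boundaries built from Ensembl release 53 on hg18, per the file names and the submitters' processing notes, while no aligner is named in those sources. For genes, junctions and boundaries the deposited values are raw counts of reads. All files hold deposited coverage, summed by the authors as bases of reads, and a normalized coverage; exon region and transcript files have coverage only, so read equivalents were computed as coverage over mean bases per read (40.4 and 39.8). The authors' deposited 0 or 1 flag of expression was used as given.

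Ratios are log2 of shares of gene reads after adding 0.5 reads, with exact conditional binomial 95% intervals, where a gene's reads in the 2 libraries summed to 100 or more. Features needed 50 read equivalents (exon regions, transcripts) or 20 reads (junctions, boundaries) and a gene total of 200 reads or more, with at least 10 in each library; their index takes the gene ratio as fixed. Every member is accounted for; full values are given for members counted at 1.5-fold, for CDK4, CDK6, CDK2, CDC2, CCND1, CCND3, CCNE1, CCNA2, CCNB1, CDKN1B and CDKN2A for counted features and the 3 largest others whose interval excludes 0, and of each list the 2 highest and 2 lowest genes. Members and lists were chosen with earlier results of these data known. No p-value was computed, since each group is 1 library. Listed names found only as older symbols were taken so, and SKP1 was not matched. Some overlaps and 1 alternative for a list are not reported here.

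The rules were tested on simulated data with counting error only. Alternatives were other scalings, deposited coverage, exon medians, read minima, fold sizes, pseudocount and neighbour numbers. TMM factors came from edgeR 4.0.16 under R 4.3.3. All else was run in Python 3.11.15, with scipy 1.17.1 for intervals, pandas 2.3.3 and numpy 2.4.6 for tables, and matplotlib 3.10.9 for plots.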

Additional observations from a re-analysis of the deposited data

How the results depend on the processing

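No paired analysis was possible because each line has 1 library, and leaving out a library leaves no comparison. Scaling shifted all log2 ratios by -0.03 (median) or -0.05 (TMM). At 1.5-fold, median scaling gave 4 members higher and 4 lower, TMM 4 and 4, and deposited coverage 4 higher, against 7 and 2; a minimum of 500 reads left 1 lower, since CCNI2 was no longer tested. Over fully coding exon regions, an alternative chosen after seeing the data, 2 were higher (E2F2 and CDK3) and 1 lower (CCND2) of 36 members with enough reads. E2F1 (0.54) and CCNE2 (0.56) fell just short of 1.5-fold there. CDKN2C and CDKN2D have no fully coding region, and CDKN2B and CCNI2 had under 100 read equivalents there, so these genes were not assessed. At 2-fold, exon medians, which weigh regions with few reads like the others, gave 1 higher (CDKN2D), against 0. Relaxing to 1.5-fold gave 7 and 2. No counted direction turned under any setting; exon medians changed the sign of 4 members near 0. Minima of 100 and 40 reads left 1 exon region, 1 transcript and 1 boundary relatively higher, and an index of 2 left 0 exon regions, 0 transcripts and 0 junctions. Only 1 boundary had mRNA or EST support, and 0 junctions were lower against the junction median. Junction reads could not replace coverage for the first exons of CDKN2A, which had 0. The cause of these changes was not tested beyond the smaller numbers of features. With 1 library of each line, differences between cultures and between library preparations were not measured, and the members with few reads (CDKN2B, CCNI2, CCNB3) have wide intervals.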
